A study of Homo sapiens with 6 samples.

Results

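Glycolysis is the chain of reactions by which a cell splits glucose into pyruvate and gains ATP and NADH without oxygen, and rapidly growing tumor cells and contracting muscle both rely on it. GAPDH, glyceraldehyde-3-phosphate dehydrogenase, carries out the step that makes NADH, and its transcript and protein are also used widely as references that are taken to stay level between samples. In the study's lists of reagents GAPDH stands in both roles, as the protein loading control of the western blots and among the primers for RT-qPCR. The members were found by name, as the glycolytic enzymes among the genes of the deposited table, by a rule that uses no measured value, although it was set with earlier results of these data known. Of 20 names searched, 7 were present among the 1273 genes of the table: PFKL, ALDOA, ALDOC, TPI1, GAPDH, ENO3 and PKM. They act at 6 of the 11 steps that the 20 names cover, from the phosphofructokinase step to pyruvate kinase. The other 13 names, HK1, HK2, GPI, PFKM, PFKP, PGK1, PGAM1, PGAM2, ENO1, ENO2, PKM2, LDHA and LDHB, were not analysed here, and PKM2 is an older name of PKM. By their number, the genes of the table are those that passed the authors' own test, so every member had been selected upstream for a difference between these groups, and no count below is an independent test of it.

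All libraries came from Rh30 cells, a human line established from alveolar rhabdomyosarcoma, a cancer whose cells resemble immature skeletal muscle. Stable lines that carried the cumate repressor CymR and a cumate-inducible vector received 30 µg/mL cumate for 48 h in medium with geneticin and puromycin. The inducible vector encoded PANX1, a channel protein of the plasma membrane, in 3 libraries. The other 3 were the control, titled Vector and given the genotype GFP in the sample labels. The treatment label has GFP under the cumate switch in this control, whereas the study's methods describe the empty plasmid, with GFP driven constitutively from a backbone that both groups carry, and the sources used here do not settle which holds. No source used here says whether a line was 1 clone. The methods call the PANX1 replicates matching to those of GFP without saying what they share, and the replicate numbers of the sample titles and of the sample descriptions pair them differently, so limma was run without a block and calls that a block changes are given beside the results. The block by description number also leaves out GFP replicate 1 and PANX1 replicate 3, which have no partner by that number. It leaves little to estimate a gene's own spread, so its p-values rest mainly on the variance shared across the table. PANX1 itself had 37.8, 35.3 and 28.1 FPKM (fragments per kilobase of transcript, scaled to the number of mapped fragments) in GFP replicates 1, 2 and 3 and 124, 184 and 123 in PANX1 replicates 1, 2 and 3, as the labels require. Of 20 muscle lineage markers, 4 were in the table, among them desmin (DES) at 214 to 354 FPKM in the GFP libraries. Of 13 markers of fibroblasts, leukocytes, epithelium and endothelium, CD68 alone was listed, at 0.599, 0.416 and 1.08 FPKM in the GFP and 1.37, 2.11 and 2.40 FPKM in the PANX1 libraries, and its part in any result was not tested. The other 12 marker genes, PTPRC included, and the other 16 muscle markers, MYOD1 and MYOG included, were not analysed here.

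PANX1 replicate 3 stood apart from the other libraries. The log2 ratios to the mean GFP level had a median of 1.87 over the table in that library, against 0.77 in PANX1 replicate 1 and 0.61 in PANX1 replicate 2. Changes of the enzymes, and of other genes where that library moved the value by over 1.5 times, are therefore also given without it. The whole table also leaned one way, with 1108 genes higher and 165 lower in mean FPKM in PANX1 cells. Rescaling the libraries by the median of ratios over the table moved the median log2 ratio of its genes from 1.23 to 0.043, so the direction of a moderate change rests on whether the deposited FPKM are taken as they stand. As the table holds selected genes only, that rescaling is a comparison with the other genes of the table and not with the whole transcriptome. In bulk libraries, fewer cells with a transcript and less of it per cell cannot be told apart.

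The primers listed for GAPDH are shown because they define the transcript stretch that a GAPDH reference measurement reads, and because the gene has many close copies. Both are written 5′ to 3′ in capitals as designed.
GAPDH forward: GTCTCCTCTGACTTCAACAGCG
GAPDH reverse: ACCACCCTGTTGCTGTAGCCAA
On hg19 the forward primer matched exon 8 of 9 of the GENCODE transcript ENST00000229239 (chromosome 12, plus strand, 6647068 to 6647089), and the reverse primer matched the opposite strand in exon 9 (6647281 to 6647302). They enclose 131 bases of the transcript, 95 in exon 8 and 36 in exon 9, all inside the coding sequence, with an intron of 104 bases between the exons. In the sequence below, read from the GENCODE transcript, the capitals mark the primer sites.
GAPDH amplicon: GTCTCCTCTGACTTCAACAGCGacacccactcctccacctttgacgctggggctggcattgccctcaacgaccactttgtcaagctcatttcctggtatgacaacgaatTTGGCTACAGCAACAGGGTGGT
GENCODE names 65 pseudogenes after GAPDH. The forward primer had 3 exact matches in the hg19 genome and the reverse primer 16, and 1 annotated pseudogene, GAPDHP71, held both sequences. No entry of the deposited table bears the name of a GAPDH pseudogene, and reads shared between the gene and such copies make its FPKM uncertain to an extent that was not tested. GENCODE likewise names 5 pseudogenes after PKM, 4 after TPI1 and 2 after ALDOA, and none after PFKL, ALDOC or ENO3.

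GAPDH (XLOC_004674, chromosome 12 of hg19, 6643585 to 6647537, plus strand) had the highest FPKM of all 1273 genes in each of the 6 libraries. Its FPKM was 2131, 2447 and 2450 in GFP replicates 1, 2 and 3 and 3671, 3146 and 5838 in PANX1 replicates 1, 2 and 3. All PANX1 libraries were above all GFP libraries, and PANX1 replicate 3 was the highest by a wide margin. GFP cells had a mean of 2342 ± 183 FPKM (SD, n = 3), and PANX1 cells, with 4219 ± 1427 (SD, n = 3), were 1.80 times as high. With PANX1 replicate 3 left out the log2 ratio of mean FPKM fell from 0.85 to 0.54. On log2(FPKM + 1), the change was 0.80 (standard error 0.476), with an adjusted p-value of 0.109 from limma with Benjamini-Hochberg adjustment over the table, so GAPDH did not pass the threshold of 0.05 in this fit. The standard errors of this fit, for GAPDH and the other genes, came almost wholly from the trend of spread on mean level, not from a gene's own replicates. Without the trend GAPDH had a standard error of 0.355 and an adjusted p of 0.0723 from limma (0.0422 unadjusted), and also did not pass. With the replicate number as a block it did pass, at an adjusted p of 0.0097 from limma by title number and 0.00646 by description number, whereas without a block and without PANX1 replicate 3 it was 0.144. The exact two-sided permutation test gave p = 0.1, the smallest that 3 libraries against 3 allow. GAPDH stood low within the table, since 1035 of the 1273 genes had a larger log2 ratio. Its log2 ratio lay 0.38 below the median of the table, and after median-of-ratios scaling it was -0.26, with all PANX1 libraries below all GFP libraries. Without PANX1 replicate 3 GAPDH was nearer to the table, at 0.54 against a median of 0.70. Its share of the summed FPKM of the table was 6.10%, 6.36% and 5.51% in GFP replicates 1, 2 and 3 and 6.81%, 5.55% and 5.51% in PANX1 replicates 1, 2 and 3, and these ranges overlapped.

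**Figure D1:**
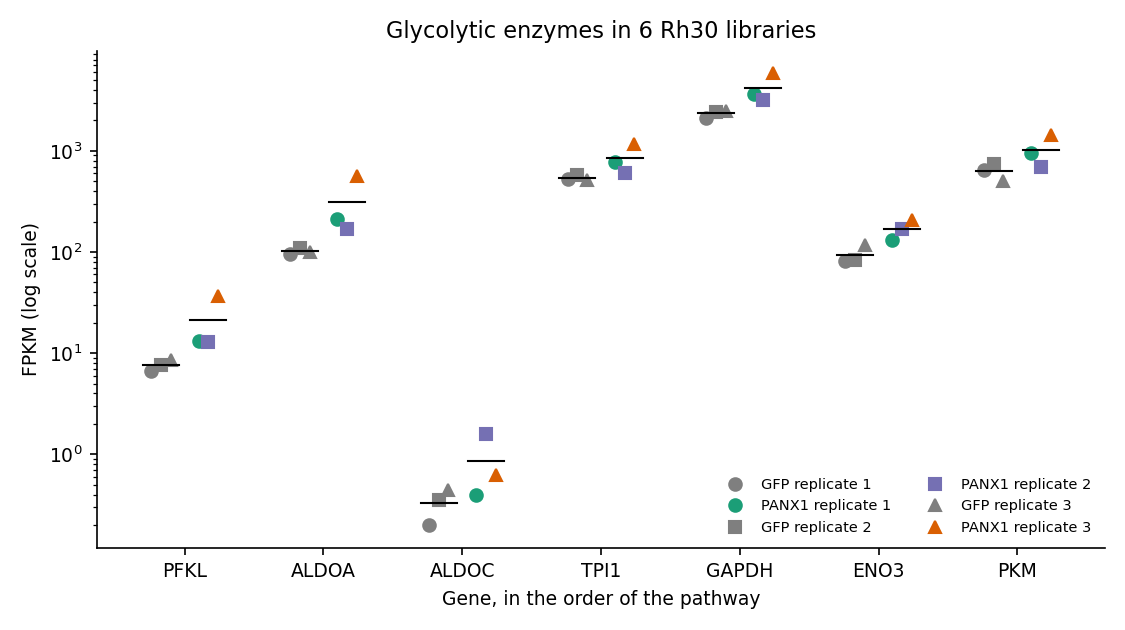
FPKM of the 7 glycolytic enzymes on a log axis, with a point for each library, GFP in gray and PANX1 in color, and a bar at each group mean. The PANX1 values of PFKL, ALDOA, TPI1, GAPDH and ENO3 lie above their GFP values, those of ALDOC and PKM overlap them, and after median-of-ratios scaling the mean of TPI1, GAPDH, ENO3 and PKM is lower in PANX1 cells.

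The enzymes ranged over more than 3 powers of 10 in FPKM, a scale that is per transcript length. In GFP cells the order of mean levels was GAPDH, PKM, TPI1, ALDOA, ENO3, PFKL and ALDOC, and it was the same in PANX1 cells. PKM and TPI1 were neighbors whose ranges overlapped in both groups, as did those of ALDOA and ENO3. The other neighbors in this order were separated in every library. The 7 enzymes together made up 9.97%, 10.3% and 8.32% of the summed FPKM of the table in GFP replicates 1, 2 and 3 and 10.7%, 8.45% and 8.71% in PANX1 replicates 1, 2 and 3. GAPDH alone accounted for 61.2% to 66.2% of the FPKM of the 7 enzymes.

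In PANX1 cells, as deposited, all 7 enzymes had a higher mean FPKM than in GFP cells, whereas 3 of the 7 (PFKL, ALDOA and ALDOC) were higher after median-of-ratios scaling. Over the table these counts were 1108 and 699 of the 1273 genes. ALDOA and PFKL passed limma's test at an adjusted p-value under 0.05, and the other 5 enzymes did not. The 2 of 7 called higher stand beside 33.5% of all genes of the table called higher, and the 0 of 7 called lower beside 0.707%. At an unadjusted p-value under 0.05, limma had 4 of the 7 higher and 0 lower, beside 744 and 43 of the 1273 genes. With the replicate block limma called 6 of the 7 higher by title number, all but ALDOC, beside 581 of the table, and 7 by description number, beside 1005. For 5 of the 7 enzymes every PANX1 value exceeded every GFP value, beside 82.0% of the table. The median log2 ratio of the 7 was 0.85 against 1.23 for the table, and 3 of 7 exceeded 1, beside 72.0% of the table. Without PANX1 replicate 3 these medians were 0.66 and 0.70, and limma called 4 of the 7 higher, namely ALDOA, PFKL, ENO3 and ALDOC, and 994 genes of the table. With GFP replicate 1, 2 or 3 left out, limma called 0 of the 7, with 1, 1 and 3 of them higher at an unadjusted p under 0.05. The table had 8, 14 and 51 genes called higher in these fits, and 253, 329 and 408 unadjusted.

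PFKL encodes the liver-type subunit of phosphofructokinase, the enzyme of the committed, tightly regulated step of the pathway. PFKL (XLOC_014205, chromosome 21, 45719925 to 45747261, plus strand) had 6.61, 7.65 and 8.56 FPKM in GFP replicates 1, 2 and 3 and 13.3, 12.9 and 37 in PANX1 replicates 1, 2 and 3. All PANX1 values were higher, replicates 1 and 2 were close to each other, and replicate 3 was 2.82 times their mean. The group means were 7.61 ± 0.977 (SD, n = 3) and 21.1 ± 13.8 FPKM (SD, n = 3). PFKL rose by 1.20 on log2(FPKM + 1) (standard error 0.485, adjusted p = 0.0445 from limma). Without PANX1 replicate 3 the change was 0.72 and the adjusted p from limma 0.00502. The limma call was lost without GFP replicate 1 (adjusted p = 0.227), GFP replicate 2 (0.193), GFP replicate 3 (0.145) or PANX1 replicate 1 (0.0572), while the change stayed between 1.11 and 1.42. It was also lost without the trend (0.0664), with median-of-ratios scaling (0.380) and after removal of the library slopes on transcript GC content (0.168). That removal was made around the protein-coding median of 49.1% GC and also shifts library levels.

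Aldolase cleaves the phosphorylated hexose into 2 triose phosphates, and ALDOA is the form of muscle and of most other tissues. ALDOA (XLOC_008044, chromosome 16, 30064411 to 30081741, plus strand) had 95.4, 109 and 100.2 FPKM in GFP replicates 1, 2 and 3 and 213, 167 and 558 in PANX1 replicates 1, 2 and 3. The groups were well apart, and PANX1 replicate 3 was 2.93 times the mean of the other PANX1 libraries. The means were 102 ± 7.10 (SD, n = 3) and 313 ± 214 FPKM (SD, n = 3), a ratio of 3.08, the largest among the 7 enzymes as deposited, whereas ALDOC had the larger log2 ratio without PANX1 replicate 3 (1.57 against 0.90) and after median-of-ratios scaling (0.58 against 0.35). ALDOA rose by 1.41 on log2(FPKM + 1) (standard error 0.371, adjusted p = 0.00416 from limma), and by 0.89 with an adjusted p of 0.00267 without PANX1 replicate 3. The limma call was lost without GFP replicate 1 (adjusted p = 0.151), GFP replicate 2 (0.108) or GFP replicate 3 (0.0537), while the change stayed between 1.36 and 1.46. It was also lost without the trend (0.0664), with median-of-ratios scaling (0.262) and after removal of the GC slopes (0.106). GENCODE places a second protein-coding gene and an antisense lncRNA over the listed locus, and fragments shared with them cannot be told apart here. The same holds for the antisense lncRNA at GAPDH, for SPSB2 on the strand opposite to TPI1, and for RSKR and a lncRNA at ALDOC, while the loci of PFKL, ENO3 and PKM held no other annotated gene.

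ALDOC, the aldolase known from brain, was by far the lowest of the 7 (XLOC_009572, chromosome 17, 26900133 to 26903951, minus strand). It had 0.199, 0.350 and 0.444 FPKM in GFP replicates 1, 2 and 3 and 0.399, 1.57 and 0.617 in PANX1 replicates 1, 2 and 3. PANX1 replicate 1 lay below GFP replicate 3, and the highest value was in PANX1 replicate 2, not in replicate 3 as for the other 6 enzymes. The log2 ratio of the means was 1.38, or 1.57 without PANX1 replicate 3, and the change on log2(FPKM + 1), which compresses values this low, was 0.44 (standard error 0.220, adjusted p = 0.0779 from limma). Without PANX1 replicate 2 that change was 0.18 and the adjusted p 0.400, and without PANX1 replicate 3 they were 0.52 and 0.0271. With the replicate block by description number the adjusted p from limma was 0.0293. The 2 aldolases thus differed in both level and spread, with ALDOA more than 2 powers of 10 above ALDOC in every library.

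TPI1, triosephosphate isomerase, interconverts the triose phosphates that aldolase releases, and lies 329 kb from GAPDH on the same strand of chromosome 12 (XLOC_004683, 6976584 to 6982521). It had 523, 582 and 516 FPKM in GFP replicates 1, 2 and 3 and 777, 609 and 1166 in PANX1 replicates 1, 2 and 3. The groups did not overlap, but PANX1 replicate 2 was only a little above GFP replicate 2. The change was 0.60 on log2(FPKM + 1) (standard error 0.401, adjusted p = 0.140 from limma, 0.0462 with the replicate block by title number and 0.0210 by description number), the log2 ratio of the means was 0.66 and 0.36 without PANX1 replicate 3, and after median-of-ratios scaling the log2 ratio was -0.46.

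ENO3 encodes beta-enolase, the enolase subunit of skeletal muscle, which makes phosphoenolpyruvate (XLOC_008784, chromosome 17, 4854384 to 4860426, plus strand). It had 81.9, 82.5 and 118 FPKM in GFP replicates 1, 2 and 3 and 131, 168 and 205 in PANX1 replicates 1, 2 and 3. All PANX1 values were above the GFP values, and replicate 3 stood less far from the other PANX1 libraries than in the enzymes named so far, at 1.38 times their mean. The means were 94.1 ± 20.6 (SD, n = 3) and 168 ± 37.4 FPKM (SD, n = 3). The change was 0.83 on log2(FPKM + 1) (standard error 0.371, adjusted p = 0.0602 from limma, 0.0251 with the replicate block by title number and 0.00464 by description number), and without PANX1 replicate 3 it was 0.67 with an adjusted p of 0.00999. After median-of-ratios scaling the log2 ratio of ENO3 was -0.19.

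PKM, pyruvate kinase of muscle and most tumors, forms pyruvate and ATP at the end of the pathway (XLOC_007669, chromosome 15, 72491370 to 72523727, minus strand). It had 645, 735 and 508 FPKM in GFP replicates 1, 2 and 3 and 948, 687 and 1423 in PANX1 replicates 1, 2 and 3. PANX1 replicate 2 lay below GFP replicate 2, so the groups overlapped. The change was 0.65 on log2(FPKM + 1) (standard error 0.407, adjusted p = 0.124 from limma, 0.0366 with the replicate block by title number and 0.00952 by description number), the log2 ratio of the means was 0.70 and 0.38 without PANX1 replicate 3, and after median-of-ratios scaling the log2 ratio was -0.44. The splice forms of PKM were not analysed here.

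**Figure D2:**
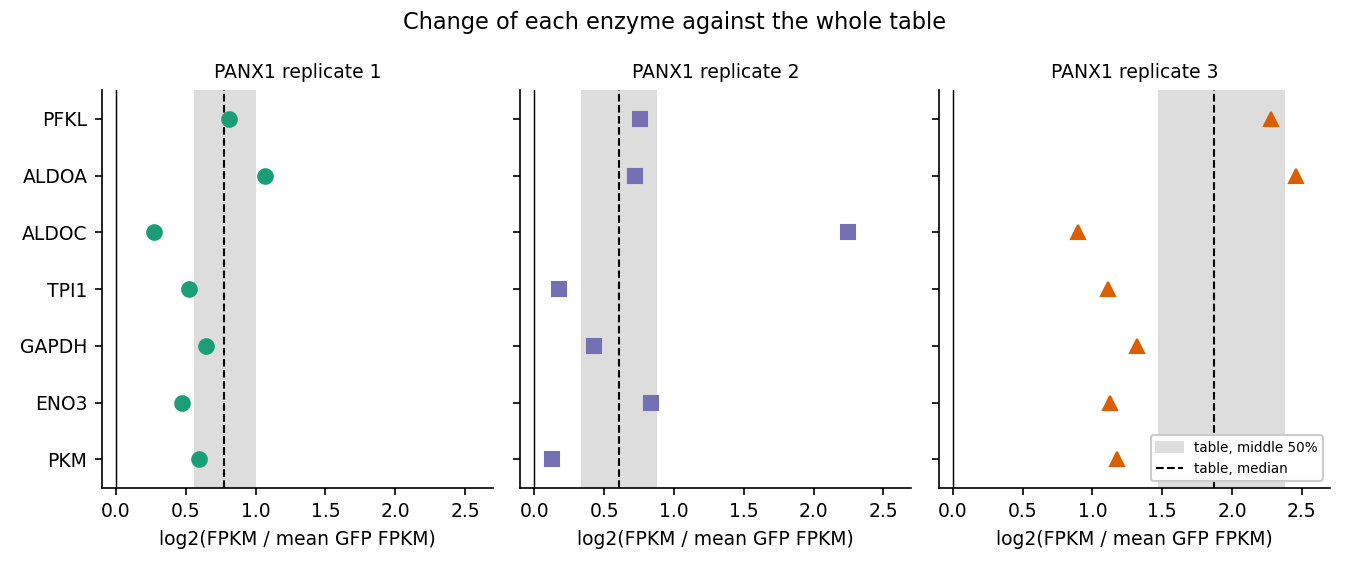
Log2 ratio of each enzyme's FPKM in one PANX1 library to its mean GFP FPKM, with the middle 50% of the table in gray and its median as a dashed line. TPI1, GAPDH and PKM lie left of the table's median in each PANX1 library and their mean falls below GFP after median-of-ratios scaling, whereas ALDOA lies right of the median in replicates 1, 2 and 3.

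The 7 enzymes thus fell on both sides of the table's median. ALDOA had a log2 ratio of 1.07, 0.72 and 2.46 in PANX1 replicates 1, 2 and 3, above the table's median in each. PFKL had 0.81, 0.76 and 2.28, also above it in each. GAPDH had 0.65, 0.43 and 1.32, TPI1 0.52, 0.17 and 1.11, and PKM 0.59, 0.13 and 1.18, all below it. ENO3 was below the median in replicates 1 and 3 and above it in replicate 2, as was ALDOC.

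Transcript GC content moved with the excess of PANX1 replicate 3. The longest annotated protein-coding transcripts of the 7 enzymes had GC contents from 55.4% for ALDOC to 63.4% for PFKL, with 57.3% for GAPDH, against a median of 61.0% for the table and 49.1% for annotated protein-coding genes. The log2 ratio of PANX1 replicate 3 to the mean of replicates 1 and 2 was -0.68 for ALDOC, 0.78 for GAPDH and 1.55 for ALDOA. Its median was 0.78 over the 7 enzymes and 1.15 over all 592 genes of the table in that range of GC content, against -0.74 over the 227 genes with lower and 1.56 over the 335 genes with higher GC content. After the library slopes on GC content were removed, the limma changes of the 7 enzymes ran from 0.056 for ALDOC to 0.72 for ALDOA, and 0 of the 7 had an adjusted p under 0.05, with 1 at an unadjusted p under 0.05, beside 9 genes called higher and 294 unadjusted of the 1154 genes. The slopes were taken out around 49.1%, the protein-coding median, which lies below the table's own median. The correction therefore also shifted the level of each library, and GAPDH went from 0.80 to 0.30. This correction also takes away any true difference that follows GC content, and the part of GC content in the results was not tested.

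**Figure D3:**
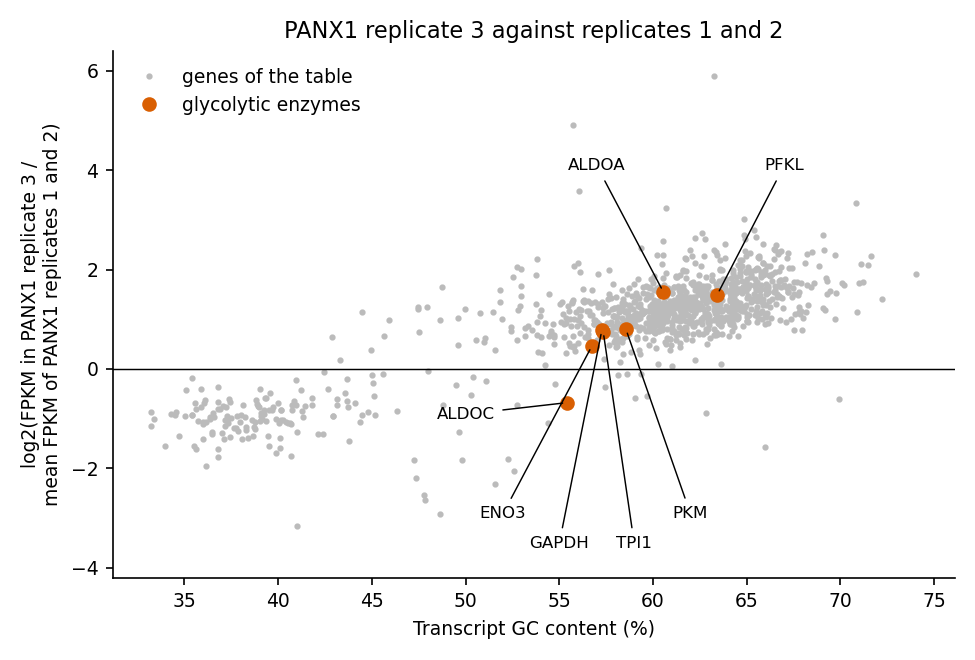
Log2 ratio of FPKM in PANX1 replicate 3 to the mean of PANX1 replicates 1 and 2, against transcript GC content, for the 1154 genes of the table with a GC value. The 7 enzymes (orange) have GC contents of 55.4% to 63.4%, and ALDOC, at -0.68, is the only one of them below 0.

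A ratio of 2 genes within a library does not depend on how that library was scaled. The 2 genes can still differ in GC content, with which the excess of PANX1 replicate 3 moved. GC content was 60.5% for ALDOA and 63.4% for PFKL against 57.3% for GAPDH. After GC correction their limma changes were 0.72, 0.33 and 0.30, and the part of GC content in these ratios was not tested. Relative to GAPDH, ALDOA had 44.8, 44.7 and 40.9 FPKM per 1000 FPKM of GAPDH in GFP replicates 1, 2 and 3 and 58.0, 53.2 and 95.6 in PANX1 replicates 1, 2 and 3. Each PANX1 library exceeded each GFP library, by 0.62 in the mean log2 ratio and by 0.36 without PANX1 replicate 3. PFKL had 3.10, 3.13 and 3.49 per 1000 in GFP replicates 1, 2 and 3 and 3.63, 4.09 and 6.34 in PANX1 replicates 1, 2 and 3, again without overlap, a log2 difference of 0.49 that was 0.25 without PANX1 replicate 3. TPI1 had 246, 238 and 211 per 1000 in GFP and 212, 194 and 200 in PANX1 libraries, a log2 difference of -0.20 with a slight overlap. PKM, ENO3 and ALDOC overlapped between the groups relative to GAPDH, with log2 differences of -0.15, 0.032 and 0.42, and of -0.16, 0.14 and 0.80 without PANX1 replicate 3. The sign turned for ALDOC without PANX1 replicate 2 (-0.33), and for ENO3 without that library (-0.17) or GFP replicate 2 (-0.085). Of the 11 ratios to GAPDH tested, the 6 of the enzymes had an exact two-sided permutation p of 0.1 for ALDOA and PFKL, 0.2 for TPI1, 0.6 for PKM and 0.8 for ENO3 and ALDOC, and no ratio had a Benjamini-Hochberg adjusted p below 0.183.

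The study measured MMP2, TRAF2, APOBEC2 and MARCKS by RT-qPCR with GAPDH among the listed primers, so their RNA-seq values were also taken relative to GAPDH. Since the mean log2 FPKM of GAPDH was 0.80 higher in PANX1 cells, dividing by it lowers the log2 difference of every gene by that amount. MMP2, a matrix metalloprotease, had 0.230, 0.122 and 0.217 FPKM per 1000 FPKM of GAPDH in GFP and 0.966, 1.09 and 0.830 in PANX1 replicates 1, 2 and 3. Its own level was low in GFP replicates 1, 2 and 3, at 0.489, 0.299 and 0.532 FPKM. Its log2 difference was 3.19 before and 2.39 after division by GAPDH, without overlap, and 2.49 after division when PANX1 replicate 3 was left out. TRAF2, an adaptor of tumor necrosis factor receptors, had 1.58, 1.88 and 1.84 per 1000 in GFP and 2.51, 2.16 and 4.95 in PANX1 libraries. Its log2 difference went from 1.57 to 0.77, still without overlap, and was 0.41 relative to GAPDH without PANX1 replicate 3. The log2 ratio of mean FPKM of TRAF2 was 1.85, or 0.95 without that library.

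MARCKS, an actin-binding substrate of protein kinase C, had 26.3, 29.2 and 25.8 FPKM per 1000 FPKM of GAPDH in GFP and 15.2, 12.5 and 2.96 in PANX1 replicates 1, 2 and 3. The groups did not overlap on this scale, with a log2 difference of -1.71 against -0.91 in FPKM, and of -0.98 relative to GAPDH without PANX1 replicate 3. The log2 ratio of mean FPKM of MARCKS was -0.77, or -0.42 without that library. APOBEC2, a muscle member of the cytidine deaminase family, had 0.162, 0.302 and 0.784 per 1000 in GFP and 0.0722, 0.204 and 0.0218 in PANX1 libraries, and PANX1 replicate 2 lay above GFP replicate 1. Its log2 difference went from -1.50 to -2.30, and was -1.47 relative to GAPDH without PANX1 replicate 3. APOBEC2 was low, at 0.345, 0.738 and 1.92 FPKM in GFP and 0.265, 0.641 and 0.127 in PANX1 replicates 1, 2 and 3. Limma on FPKM, without a block, called neither APOBEC2 (adjusted p = 0.0574) nor MARCKS (0.0571), but did call MMP2 (0.0001) and TRAF2 (0.0352). Blocks by title and description number gave 0.0576 and 0.00332 for APOBEC2, and 0.0339 and 0.00921 for MARCKS. The exact two-sided permutation p was 0.1 for MMP2, TRAF2 and MARCKS and 0.2 for APOBEC2 relative to GAPDH, so none could pass a threshold of 0.05 in this design. The 4 genes kept the sign of their difference relative to GAPDH with each library left out in turn.

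**Figure D4:**
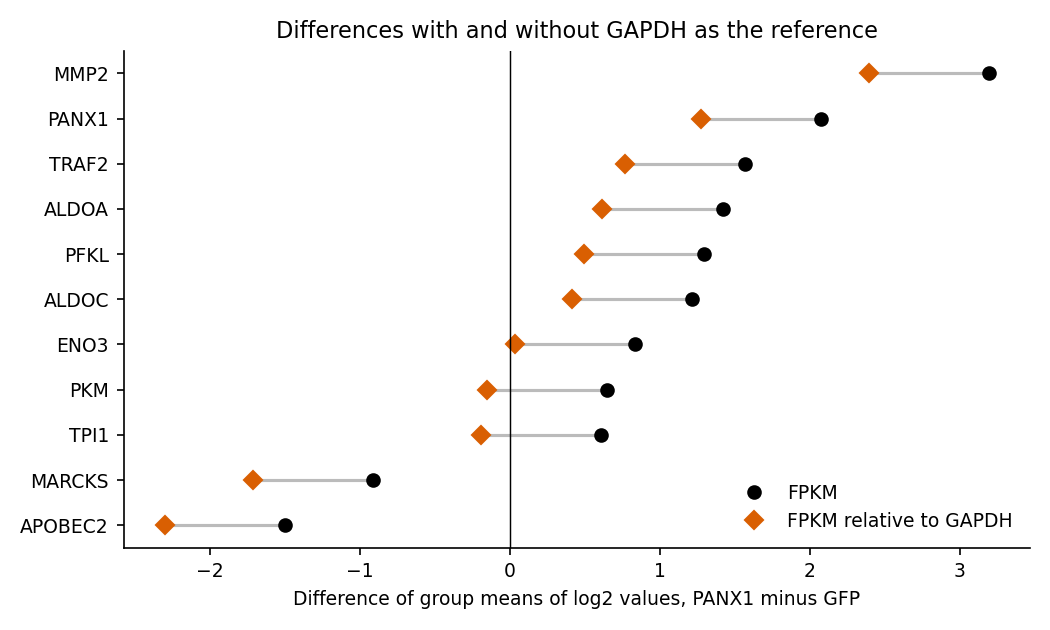
Difference of the mean log2 values of PANX1 and GFP libraries, in FPKM (black) and in FPKM relative to GAPDH in the same library (orange), for 6 enzymes, PANX1 and the 4 genes measured by RT-qPCR. Every gene moves left by the 0.80 by which GAPDH itself differs, and PKM and TPI1 change sign.

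Other transcripts in common use as references were looked up from a list of 28, of which GAPDH, RPLP0 and PPIB were in the table. RPLP0, a protein of the large ribosomal subunit, had 1239, 1350 and 1822 FPKM in GFP and 1832, 2482 and 2923 in PANX1 replicates 1, 2 and 3. The highest GFP value and the lowest PANX1 value were almost equal, and limma gave a change of 0.71 (standard error 0.448) with an adjusted p of 0.125. PPIB, cyclophilin B, had 165, 168 and 179 FPKM in GFP and 246, 243 and 461 in PANX1 libraries, with no overlap and a limma change of 0.82 (standard error 0.374, adjusted p = 0.0617). With the replicate block both passed, at adjusted p-values from limma of 0.0209 for RPLP0 and 0.0197 for PPIB by title number and 0.00654 and 0.00619 by description number. Like GAPDH, both had a log2 ratio of mean FPKM under 1, at 0.71 and 0.89, or 0.55 and 0.52 without PANX1 replicate 3 (adjusted p = 0.110 and 0.0135 from limma, so that PPIB passed, as it did without PANX1 replicate 2 at 0.0485), and both were lower in PANX1 cells after median-of-ratios scaling, at -0.31 and -0.24. The other 25 reference genes were not analysed here.

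Genes of the pathways around glycolysis were looked up by name, 150 in 6 lists, and 11 were in the table. By limma, 6 of the 11 rose and 0 fell at an adjusted p under 0.05, beside the 33.5% and 0.707% of the table. Without PANX1 replicate 3 there were 10 and 0, beside 994 and 146 of the 1273 genes. Limma called 0, 0 and 1 of the 11 higher without GFP replicate 1, 2 and 3, beside 8, 14 and 51 genes of the table. At an unadjusted p under 0.05, 6 of the 11 were higher in each of these fits, beside 253, 329 and 408 genes. After removal of the GC slopes limma called 0 of the 11 (4 higher unadjusted), beside 9 (294 higher unadjusted) of the 1154 genes with a GC value. Without the trend it called 0 of the 11 (9 higher unadjusted) and 0 of the table (770 higher unadjusted). With the replicate block it called 7 higher by title number and 9 by description number, beside 581 and 1005 of the 1273 genes. The pentose phosphate pathway, which branches from glucose 6-phosphate to make NADPH and ribose, had 2 of 11 names in the table, and both rose. TKT, the transketolase that links the branch back to glycolysis, had 31.9, 36.9 and 31.6 FPKM in GFP and 60.3, 47.5 and 126 in PANX1 replicates 1, 2 and 3. Every PANX1 library was above the GFP libraries, with replicate 3 far above the others, and the log2 ratio was 1.22 (adjusted p = 0.0309 from limma), or 0.69 without that library. PGLS, the lactonase of the pathway, had a log2 ratio of 1.498 (adjusted p = 0.0222 from limma), or 0.93 without PANX1 replicate 3.

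Among 22 transport genes, 4 were in the table, and BSG and SLC2A4RG rose by limma. BSG, basigin, the chaperone of the lactate transporters, had 57.5, 76.0 and 70.2 FPKM in GFP and 111, 91.6 and 303 in PANX1 libraries (adjusted p = 0.0236), with a log2 ratio of 1.31, or 0.57 without PANX1 replicate 3. SLC2A4RG, a regulator of the gene of the insulin-responsive glucose transporter, had a log2 ratio of 1.67 (adjusted p = 0.0242 from limma), or 0.90 without PANX1 replicate 3. SLC2A8, a glucose transporter of intracellular membranes, and SLC25A1, the mitochondrial citrate carrier, had adjusted p-values of 0.125 and 0.0686 from limma, with log2 ratios of 1.06 and 0.90, or 0.54 and 0.64 without PANX1 replicate 3, where both passed (adjusted p = 0.0386 and 0.00705 from limma). SLC25A1 also passed without PANX1 replicate 2 (0.0487), with the replicate block by title number (adjusted p = 0.0452 from limma) and by description number (0.0125). GALK1, galactokinase, was the 1 of 29 other glycolysis names in the table and rose from a mean of 4.996 ± 1.90 (SD, n = 3) to 24.98 ± 21.7 FPKM (SD, n = 3), with 13, 11.9 and 50.1 FPKM in PANX1 replicates 1, 2 and 3 (adjusted p = 0.00539 from limma). Its log2 ratio was 2.32, or 1.31 without PANX1 replicate 3.

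Of 37 names of the pyruvate dehydrogenase complex and the TCA cycle, IDH3G, a subunit of the NAD-dependent isocitrate dehydrogenase, was in the table and rose, with a log2 ratio of 1.64 (adjusted p = 0.0227 from limma), or 1.01 without PANX1 replicate 3. Of 23 names of gluconeogenesis and glycogen metabolism, PC, pyruvate carboxylase, and G6PC3, a glucose-6-phosphatase, were in the table, with log2 ratios of 1.16 and 0.94 and adjusted p-values of 0.0918 and 0.0755 from limma. Without PANX1 replicate 3 and with no block these log2 ratios were 0.65 and 0.56 and both genes passed, with adjusted p-values of 0.0150 and 0.01005 from limma, and G6PC3 also passed without PANX1 replicate 2 (0.0461). With the replicate block by description number, which leaves out PANX1 replicate 3 as well, they were 0.0190 and 0.0174. DDIT4, an inhibitor of mTOR signaling that hypoxia induces, was the 1 of 28 regulators and hypoxia targets with an entry of its own. It had 15.9, 18.3 and 118 FPKM in GFP replicates 1, 2 and 3 and 22.1, 30.6 and 24.4 in PANX1 replicates 1, 2 and 3. GFP replicate 3 alone set the lower mean of the PANX1 cells, all 3 PANX1 values being above GFP replicates 1 and 2, and the exact two-sided permutation p was 1.0. EGLN2, an oxygen sensor, shares a listed locus with 4 other names and was not counted. After median-of-ratios scaling, 6 of these 11 genes had a higher mean in PANX1 cells, namely GALK1, SLC2A4RG, BSG, PGLS, TKT and IDH3G, and limma called 0 of the 11, with 2 higher and 0 lower at an unadjusted p under 0.05. The table then had 699 of its 1273 genes with a higher mean in PANX1 cells, and 0 called, with 145 higher and 171 lower unadjusted.

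**Figure D5:**
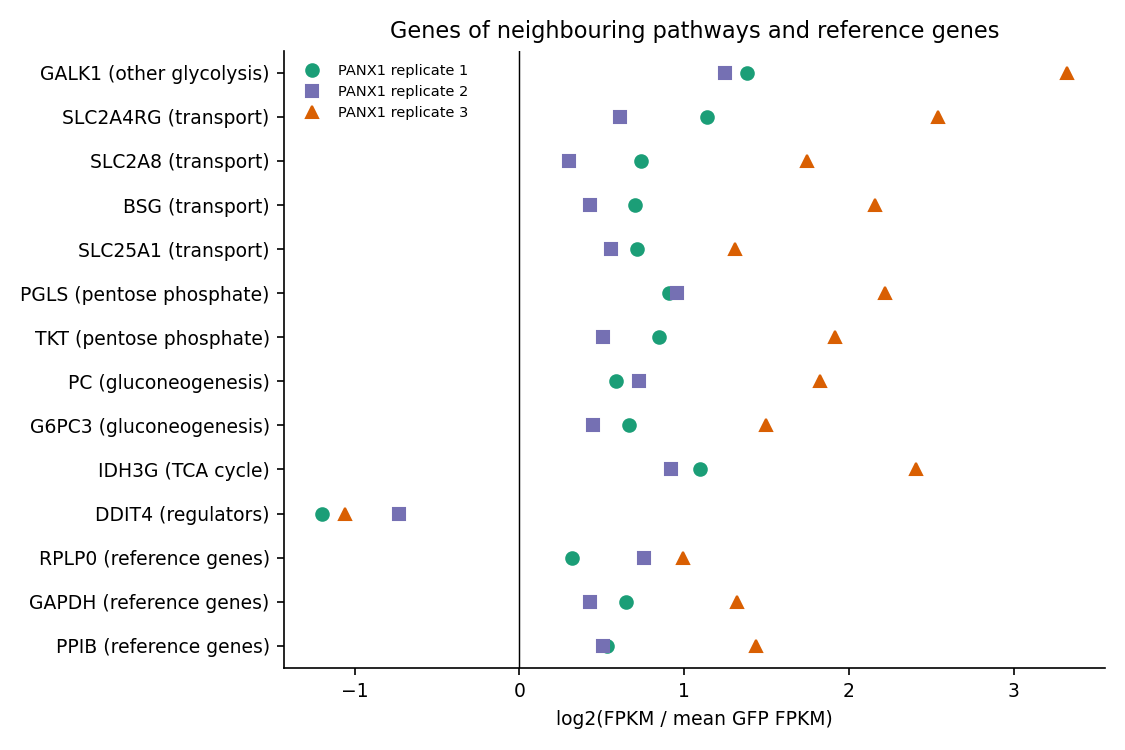
Log2 ratio of FPKM in each PANX1 library to the mean GFP FPKM for the 11 genes of neighbouring pathways and 3 reference genes, with the list of each in parentheses. PANX1 replicate 3 is the rightmost point for all but DDIT4, whose GFP mean rests on GFP replicate 3, and SLC2A8, SLC25A1, PC, G6PC3, RPLP0, GAPDH and PPIB turn lower in PANX1 cells after median-of-ratios scaling.

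Likeness to GAPDH was measured as Pearson's correlation of log2(FPKM + 1) over the 6 libraries, among the 1155 other genes whose FPKM averaged 1 or more. The 5 genes most like it were PLEKHJ1 (r = 0.999), IMPDH1 (0.999), CTDSP1 (0.999), PPP1R14B (0.998) and FAM129B (0.998). PPP1R14B, for example, had 140, 165 and 159 FPKM in GFP and 270, 227 and 533 in PANX1 replicates 1, 2 and 3, and so followed the order of GAPDH in the PANX1 group. The libraries share depth and scaling across genes, and 175 of the 1155 genes had r above 0.99, so the pattern of GAPDH was a common one in this table.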

How the data were processed

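RNA of the 6 libraries was selected for poly-A tails and prepared with the TruSeq kit. Per the labels and the study's methods, the authors trimmed reads with cutadapt 1.7.1, used TopHat 2.0.13 with Bowtie 2.2.3 for alignment to hg19, and obtained FPKM from Cufflinks 2.2.1. The deposited values are FPKM, 1 column per library, and the library scaling inside Cufflinks is not given in the sources used here. FPKM carry no counts, so the depth behind a value is unknown and no counting interval is given. Of the 1273 entries, 32 name more than 1 gene.

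Values were taken as log2(FPKM + 1) and fitted with limma 3.58.1 (R 4.3.3, eBayes with trend), p-values being adjusted over all genes of the table by Benjamini-Hochberg and called under 0.05. A fold change on this scale understates that of low genes. In the main fit the standard errors follow the trend of spread on mean level over the table and hardly reflect a gene's own replicates. Those of GAPDH, ALDOA and PFKL were 0.476, 0.371 and 0.485 with the trend, and 0.355, 0.436 and 0.419 without it. Log2 ratios of mean FPKM carry no pseudocount. Ratios to GAPDH used an exact two-sided permutation test. Sequences and GC content came from GENCODE v44lift37 on hg19, where 1154 genes had a GC value. GC correction removed each library's slope around 49.1% GC, the median of annotated protein-coding genes, and so also shifted library levels. Start positions in the table count from 0, so 1 was added.

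The members and lists were chosen with earlier results of these data known, by gene name and not by value. The genes named are the members present, PANX1, the 4 genes that the study also measured by RT-qPCR, the genes of the lists that were in the table except 1 that is not reported here, and the 5 genes most like GAPDH. The methods call the libraries biological replicates, those of PANX1 matching those of GFP. Alternatives were other pseudocounts, a minimum mean FPKM of 1, no trend, a replicate block, median-of-ratios scaling, GC correction and leaving out each library.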

Additional observations from a re-analysis of the deposited data

How the results depend on the processing

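Of the table, limma called 426 genes higher and 9 lower. The counts were 500 and 22 with a pseudocount of 0.1, 516 and 20 with 0.01, 321 and 4 with a minimum mean FPKM of 1, and 9 and 0 after GC correction. They were 0 and 0 without the trend (770 and 54 at an unadjusted p under 0.05) and 0 and 0 with median-of-ratios scaling (145 and 171 unadjusted). With each library left out they ran from 8 to 994 higher and from 0 to 146 lower. Of the 7 enzymes, 2 were called higher. That count was 0 without the trend (4 unadjusted), 0 with median-of-ratios scaling (0 higher and 1 lower unadjusted), 0 after GC correction (1 unadjusted), and 0 to 4 with each library left out, and none was called lower under any of these. Median-of-ratios scaling reversed the limma change of TPI1 (-0.47), GAPDH (-0.27), ENO3 (-0.24) and PKM (-0.42), and their log2 ratios of mean FPKM (-0.46, -0.26, -0.19 and -0.44). It left 2 enzymes and 210 genes of the table higher without overlap, against 5 and 1044 as deposited, and 5 to 6 and 1044 to 1091 with each library left out. The limma change of GAPDH ran from 0.54 to 0.99, and its log2 ratio from 0.54 to 1.02, with each library left out. Relative to GAPDH, the log2 difference of ALDOC was -0.33 without PANX1 replicate 2, and that of ENO3 ran from -0.17 without PANX1 replicate 2 and -0.085 without GFP replicate 2 to 0.17 without GFP replicate 3. The cause of these changes was not tested. The replicate numbers of the sample titles and of the sample descriptions differ for the PANX1 libraries, and the methods speak of matching replicates without naming the pairs. Deviations from the group means correlated at 0.416, -0.362 and 0.143 within title pairs and at -0.0061 and 0.0527 within description pairs, so which libraries match was not settled. With the replicate block by title number limma called 581 genes higher and 33 lower and 6 enzymes higher, with GAPDH at 0.80 (adjusted p = 0.0097). With the block by description number, on the 4 libraries that share one, it called 1005, 140 and 7, with GAPDH at 0.47 (adjusted p = 0.00646). The p-values of that block rest mainly on the variance shared across the table. With GC correction and the block by title number the counts were 66, 6 and 0 (1 enzyme unadjusted). For the ratios to GAPDH the mean difference within title pairs equals the difference of group means. FPKM without counts give no depth, so how far counting error limits ALDOC, the lowest member, is unknown.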

Other observations

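The markers of the muscle lineage that were in the table did not move as 1 group. DES, the intermediate filament protein of muscle, had 214, 277 and 354 FPKM in GFP and 384, 427 and 571 in PANX1 replicates 1, 2 and 3, without overlap but with an adjusted p of 0.0885 from limma (0.0300 with the replicate block by title number, 0.0151 by description number and 0.0364 without PANX1 replicate 3) and a log2 ratio of -0.32 after median-of-ratios scaling. CDH15, the cadherin of myoblasts, rose by 1.23 on log2(FPKM + 1) (adjusted p = 0.0198 from limma), by 0.70 without PANX1 replicate 3, and was 0.20 higher in log2 ratio after that scaling. The CDH15 call was lost without GFP replicate 1, 2 or 3 (adjusted p = 0.224, 0.172 and 0.0917 from limma), without the trend (0.0664), with median-of-ratios scaling (0.514) and after GC correction (0.368, with a change of 0.21). Its change was 1.11, 1.24 and 1.33 without GFP replicate 1, 2 and 3, and 0.18 with median-of-ratios scaling. MYH8, the perinatal myosin heavy chain, had 0.388, 0.606 and 0.883 FPKM in GFP and 0.115, 0.260 and 0.030 in PANX1 libraries, and fell by 0.51 on log2(FPKM + 1) (adjusted p = 0.0354 from limma), with a log2 ratio of -2.21, or -1.74 without PANX1 replicate 3, and of -2.88 after scaling. The MYH8 call was lost without GFP replicate 1, 2 or 3 (adjusted p = 0.157, 0.185 and 0.154 from limma) or PANX1 replicate 1 (0.0782), without the trend (0.157), with median-of-ratios scaling (0.104) and after GC correction (0.107). In these fits its change lay between -0.40 (without GFP replicate 3) and -0.75 (median-of-ratios scaling), with -0.44 after GC correction. TNNI1, slow skeletal troponin I, had a log2 ratio of 0.66 (adjusted p = 0.134 from limma, 0.0128 with the replicate block by description number), or 0.40 without PANX1 replicate 3 (adjusted p = 0.0394), and of -0.43 after scaling.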
